A study of Mus musculus with 9 samples.

Results

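The angiogenic ligands and receptors are 10 genes chosen by name, Vegfa, Vegfb, Vegfc, Flt1, Flt4, Nrp1, Nrp2, Angpt1, Angpt2 and Tek, and all 10 were among the 16755 genes of the deposited table. Polyadenylated RNA of mouse liver was sequenced in 3 groups of 3 mice each. The control group was liver of untreated Scd2f/f mice, which carry floxed Scd2 and no Cre. The Scd2f/f TAL group (TAL, tumor-adjacent liver) had the same genotype and received DEN, the hepatic carcinogen diethyl nitrosamine, as a dose of 10 mg/kg given when 2 weeks old, followed by WAD, a Western alcohol diet, from the age of 6 weeks. The Scd2f/f;CC TAL group had the same regimen and also carried Cre under the Col1a1 promoter, which is active in activated hepatic stellate cells (aHSC) and portal fibroblasts, so that Scd2 deletion was aimed at these cells, and whether it also occurred in other liver cells was not tested. All groups shared the C57BL/6 background, named C57BL/6J in the methods, and the floxed Scd2 alleles. The labels give 4 months of WAD, a shorter time than the study's methods, and call the tissue liver. The methods for RNA name it NTL where the study's results name it TAL, and which of the names fits the sequenced tissue was not tested. The table gives 1 mean of upper-quartile normalized read counts per group, so the depth of each library and the spread between the 3 mice of a group are unknown. The differences below are therefore differences between group means without a test across mice, and the authors' own test results, which the table also holds, were not used here.

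Blood vessels grow and are kept in place by a pair of ligand families. VEGF ligands bind receptor tyrosine kinases of endothelial cells, with neuropilins as co-receptors, and Vegfa is the main signal for vessel growth. Angiopoietins bind Tek, the Tie2 receptor, where Angpt1 stabilizes vessels and Angpt2 can block that signal. In liver, hepatocytes are a source of Vegfa, sinusoidal endothelial cells carry its receptors, and stellate cells, the pericytes of the sinusoid, are known to release angiogenic ligands when activated.

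The 3 VEGF ligands are shown first by the 250 bases before their RefSeq start sites, because their group means had 3 different orders over the same 3 groups. In the sequences on GRCm38.p6, written 5′ to 3′ on the strand of the gene, capitals mark the GC box, GGGCGG on either strand, so that overlapping boxes run together.

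Vegfa (chr17:46032378-46032627, minus strand): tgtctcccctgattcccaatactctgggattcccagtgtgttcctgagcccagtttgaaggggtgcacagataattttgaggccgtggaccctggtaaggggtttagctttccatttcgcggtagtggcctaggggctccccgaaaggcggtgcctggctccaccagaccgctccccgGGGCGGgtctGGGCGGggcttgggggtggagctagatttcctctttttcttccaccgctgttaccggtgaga

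Vegfb (chr19:6987652-6987901, minus strand): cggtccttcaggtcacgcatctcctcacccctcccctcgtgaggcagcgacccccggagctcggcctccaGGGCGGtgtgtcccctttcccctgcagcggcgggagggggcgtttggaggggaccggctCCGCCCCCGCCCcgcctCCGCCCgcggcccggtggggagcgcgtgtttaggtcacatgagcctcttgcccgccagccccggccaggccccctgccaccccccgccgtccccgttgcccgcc

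Vegfc (chr8:54077282-54077531, plus strand): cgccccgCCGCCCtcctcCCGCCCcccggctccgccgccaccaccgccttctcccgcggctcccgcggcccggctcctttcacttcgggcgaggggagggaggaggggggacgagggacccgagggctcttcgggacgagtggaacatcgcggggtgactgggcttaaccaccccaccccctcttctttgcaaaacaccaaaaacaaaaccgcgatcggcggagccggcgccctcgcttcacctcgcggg

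No gene of GENCODE M21 lies in these 3 windows, which hold 59.2%, 76.4% and 71.6% G and C for Vegfa, Vegfb and Vegfc. RefSeq windows were found for 8 of the 10 members, 9 windows in all, since Vegfa has 2 start sites. A GC box was in 8 of these 9 windows, where it is in 32.7% of all 32851 windows of that length. The ACGTG form of the hypoxia response core, searched on both strands, was in 1 member window, that of the downstream start site of Vegfa. It was in 16.6% of all windows. The GCGTG form of that core was not counted, and the Vegfb window printed above holds it. The TCF/LEF core CTTTGA was in 1 member window, that of Nrp2, and in 13.8% of all. The TEAD core CATTCC was in 0 of the 9 member windows and in 12.6% of all. These letters are matches only and show no binding.

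The targeted gene Scd2, a stearoyl-CoA desaturase, had a mean of 2.46 in control liver and 6.47 in Scd2f/f TAL, against 1.87 in Scd2f/f;CC TAL. Its mean was 2.63-fold higher in Scd2f/f TAL than in control and lower by a ratio of 0.289 in Scd2f/f;CC TAL than in Scd2f/f TAL. The gene mean covers exons outside the floxed one and cells without Cre. Albumin (Alb), the main secreted protein of hepatocytes, had means of 21300, 20900 and 22700 in control, Scd2f/f TAL and Scd2f/f;CC TAL, so all groups carried the defining marker of the labelled tissue.

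Vegfa, at chr17:46016993-46032369 on the minus strand, was the most abundant of the ligands, with means of 34.5 in control and 26.9 in Scd2f/f TAL, against 31.7 in Scd2f/f;CC TAL. It was lowest in Scd2f/f TAL, with a ratio of 0.78 to control, and 1.18-fold higher in Scd2f/f;CC TAL than in Scd2f/f TAL. In bulk liver, fewer cells of a type and less RNA per cell cannot be told apart. Vegfb, at chr19:6982473-6987651 on the minus strand, encodes a ligand of Flt1. Its means were 3.51 in control and 4.45 in Scd2f/f TAL, against 2.67 in Scd2f/f;CC TAL, highest in Scd2f/f TAL where Vegfa was lowest. The mean in Scd2f/f;CC TAL was 1.67-fold lower than in Scd2f/f TAL (log2 ratio -0.74), and 6.6% of the genes with an average over the 3 groups of 1 to 10 had a larger absolute log2 ratio in that comparison. Vegfc, at chr8:54077606-54187096 on the plus strand, encodes the ligand of Flt4 and a signal for lymphatic vessels. Its means were 1.13 in control and 1.76 in Scd2f/f TAL, against 1.91 in Scd2f/f;CC TAL. Both groups with DEN and WAD lay above control, by 1.56-fold and 1.69-fold, and differed from each other by 1.09-fold. Vegfd, the fourth ligand of this family in the table, had low means of 0.317, 0.468 and 0.313 in the same order of groups.

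Levels were also taken per kilobase of merged exon, an approximate scale for comparing genes. The merged length joins the exons of all annotated transcripts of a gene, and which transcripts were expressed is not known. On this scale the Vegfa level was 3.68 times that of Vegfb in control liver, 2.26 times in Scd2f/f TAL and 4.45 times in Scd2f/f;CC TAL. The level of Vegfa was thus nearest to that of Vegfb in Scd2f/f TAL. Against Vegfc the level of Vegfa was 17.4 times as high in control and 8.74 times in Scd2f/f TAL, against 9.49 times in Scd2f/f;CC TAL.

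**Figure D1:**
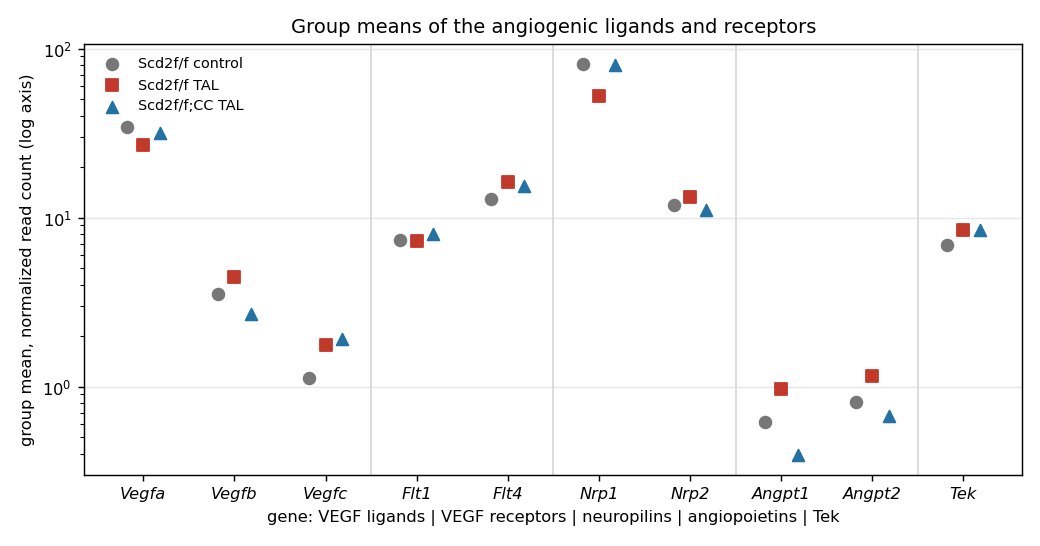
Group means of the 10 genes in normalized read counts (vertical log axis), 1 point per group and gene, with no error bars because the table gives only means of 3 mice. Nrp1 is lowest in Scd2f/f TAL (52.6, against 81.6 in control and 80.4 in Scd2f/f;CC TAL), while Angpt1, Angpt2 and Vegfb are highest there.

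The VEGF receptors differed less between the groups than the ligands Vegfb and Vegfc. Flt1, at chr5:147561604-147726011 on the minus strand, encodes a receptor that binds Vegfa tightly and signals weakly, and also a soluble decoy form, which a gene mean does not separate. Its means were 7.39 in control and 7.31 in Scd2f/f TAL, against 8 in Scd2f/f;CC TAL, so that the highest was 1.09 times the lowest. Flt4, at chr11:49609263-49652739 on the plus strand, is the receptor of Vegfc and is used by lymphatic and sinusoidal endothelium. Its means were 12.9, 16.2 and 15.3 in control, Scd2f/f TAL and Scd2f/f;CC TAL. Both groups with DEN and WAD were above control, by 1.26-fold and 1.19-fold. Kdr, the main signalling receptor of Vegfa, was not chosen as a member but completes the set. The means of Kdr were 29.8, 34.9 and 40.2, in steps of 1.17-fold and 1.15-fold. Per kilobase of exon, the Kdr level was 6.03 times that of Flt1 in control and 7.14 times in Scd2f/f TAL, against 7.51 times in Scd2f/f;CC TAL.

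Nrp1, at chr8:128358604-128503363 on the plus strand, encodes a co-receptor for VEGF and class 3 semaphorins. It was the most abundant member in read counts, with means of 81.6 in control and 52.6 in Scd2f/f TAL, against 80.4 in Scd2f/f;CC TAL. The mean in Scd2f/f TAL was 1.55-fold below control (log2 ratio -0.63) and that in Scd2f/f;CC TAL was 1.53-fold above Scd2f/f TAL (log2 ratio 0.61). The Scd2f/f;CC TAL mean stood at a ratio of 0.985 to control. Both comparisons share the Scd2f/f TAL group, so a mean of that group that is off by chance moves both in opposite directions. Among the 5586 genes with an average of at least 10, 3.24% had a larger absolute log2 ratio than Nrp1 in Scd2f/f;CC TAL relative to Scd2f/f TAL, and 13.7% between Scd2f/f TAL and control. Nrp2, at chr1:62703285-62818695 on the plus strand, is the co-receptor for Vegfc. Its means were 11.9, 13.3 and 11.1 in control, Scd2f/f TAL and Scd2f/f;CC TAL, highest in Scd2f/f TAL where Nrp1 was lowest. The Nrp1 level per kilobase of exon was 8.3 times that of Nrp2 in control and 4.79 times in Scd2f/f TAL, against 8.77 times in Scd2f/f;CC TAL.

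Angpt1, at chr15:42424723-42676977 on the minus strand, encodes the agonist of Tek and is made by perivascular cells. Its means were 0.62 in control and 0.964 in Scd2f/f TAL, against 0.392 in Scd2f/f;CC TAL. The mean was 1.55-fold higher in Scd2f/f TAL than in control and 2.46-fold lower in Scd2f/f;CC TAL than in Scd2f/f TAL (log2 ratio -1.30), the largest difference of any member in these comparisons without a pseudocount. With a pseudocount of 1 added to the means, the log2 ratio was -0.50, no longer 2-fold and smaller than those of Nrp1 (0.60) and Vegfb (-0.57) on that scale. The means of Angpt1 are low, and at low means ratios scatter more. Of the 4971 genes with an average under 1, 10.1% were at least 2-fold lower in Scd2f/f;CC TAL than in Scd2f/f TAL, against 0.609% of those with an average of at least 10. Among genes with an average under 1, 8.29% had a larger absolute log2 ratio than Angpt1. Angpt2, at chr8:18690263-18741562 on the minus strand, is a context-dependent antagonist of Tek that endothelial cells release. Its means were 0.807, 1.16 and 0.673 in control, Scd2f/f TAL and Scd2f/f;CC TAL, the same order as for Angpt1. Angpt2 was 1.44-fold higher in Scd2f/f TAL than in control and 1.72-fold lower in Scd2f/f;CC TAL than in Scd2f/f TAL, and 22.8% of the genes with an average under 1 had a larger absolute log2 ratio in the latter comparison.

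Tek, at chr4:94739289-94874976 on the plus strand, had means of 6.91 in control and 8.49 in Scd2f/f TAL, against 8.45 in Scd2f/f;CC TAL. The receptor was 1.23-fold higher in Scd2f/f TAL than in control and had almost equal means in both groups with DEN and WAD (log2 ratio -0.01), whereas both angiopoietins had lower means in Scd2f/f;CC TAL. Per kilobase of exon, the Tek level was 12.3 times that of Angpt1 in control and 9.73 times in Scd2f/f TAL, against 23.8 times in Scd2f/f;CC TAL. Tie1, the orphan partner of Tek, had means of 5.42, 5.45 and 5.6, and Ptprb, an endothelial phosphatase that acts on Tek, had means of 75.2, 75.1 and 82.2 in control, Scd2f/f TAL and Scd2f/f;CC TAL. Both had nearly equal means in control and Scd2f/f TAL.

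Set in order of level per kilobase of exon, the members in control liver were Nrp1 (8.34), Vegfa (8.05), Vegfb (2.19), Flt4 (1.57), Tek (1.47), Nrp2 (1.0), Flt1 (0.547), Vegfc (0.461), Angpt2 (0.219) and Angpt1 (0.119). Nrp2, Angpt2 and Angpt1 held the same rank in all 3 groups. In Scd2f/f TAL, Vegfa (6.28 per kilobase) stood above Nrp1 (5.38), and Vegfc (0.719) above Flt1 (0.541). In Scd2f/f;CC TAL, Nrp1 (8.22) was again above Vegfa (7.40), while Vegfb (1.66) stood below Flt4 (1.86) and Tek (1.79). Whether neighbours in this order differ beyond the spread between mice was not tested. The order also depends on the merged exon lengths, such as 13504 bases for Flt1 and 2449 for Vegfc.

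Between Scd2f/f TAL and control, 7 members had higher and 3 had lower means, and none of the 10 reached 2-fold in either direction. Of all genes, 9.37% were at least 2-fold higher and 4.69% at least 2-fold lower in that comparison. The median log2 ratio of the members was 0.31, beside 0.04 for all genes. With a limit of 1.5-fold, Vegfc and Angpt1 were higher and Nrp1 was lower, 3 of 10 members, where 28.5% of all genes were past that limit. In Scd2f/f;CC TAL relative to Scd2f/f TAL, 4 members had higher and 6 had lower means, with a median log2 ratio of -0.04 beside 0.00 for all genes. Angpt1 alone was at least 2-fold lower and none was at least 2-fold higher, while 4.07% of all genes were at least 2-fold lower and 1.82% at least 2-fold higher. At 1.5-fold, Vegfb, Angpt1 and Angpt2 were lower and Nrp1 was higher, 4 of 10 members, beside 15.5% of all genes. No test of these counts was run, and nothing is read from them about the 10 genes as a group.

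Scd2f/f;CC TAL was also set against control liver, where none of the members reached 2-fold, and 6.41% of all genes were at least 2-fold higher and 4.64% at least 2-fold lower. Vegfc was 1.69-fold higher and Angpt1 was 1.58-fold lower, the 2 members past 1.5-fold, beside 25.8% of all genes. The other members ranged from a ratio of 0.761 for Vegfb to 1.22 for Tek.

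**Figure D2:**
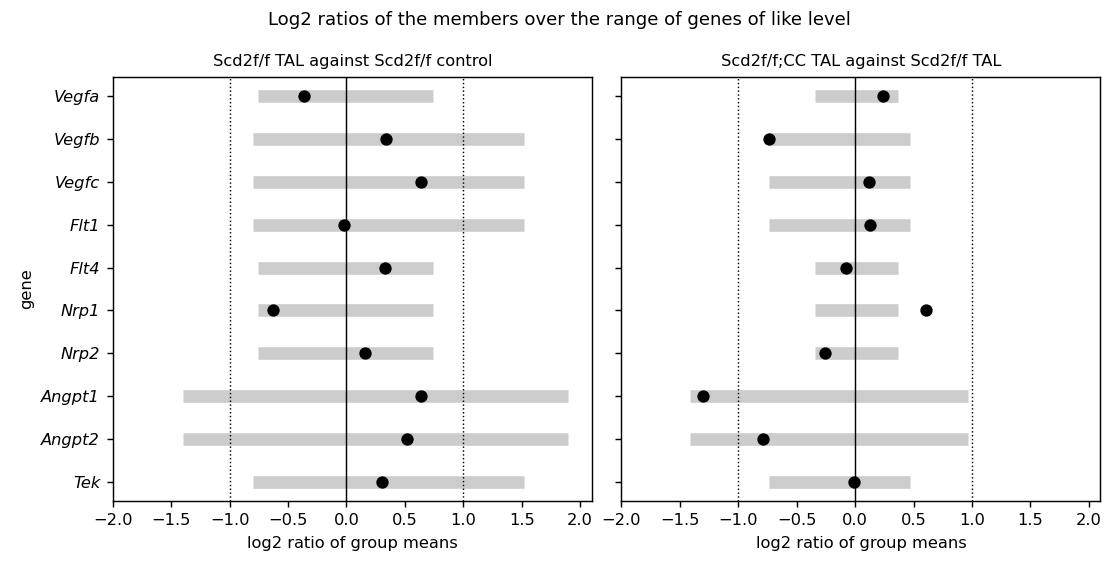
Log2 ratios of group means (horizontal axis) of the 10 genes, for Scd2f/f TAL against control (left) and Scd2f/f;CC TAL relative to Scd2f/f TAL (right), with dotted lines at 2-fold. Grey bars span the 5th to 95th percentile of all genes in the same class of average level (under 1, 1 to 10, at least 10), and Nrp1 lies above its bar on the right (log2 ratio 0.61), Vegfb (-0.74) lies at the lower end of its own, and Angpt1 (-1.30) lies within its own.

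**Figure D3:**
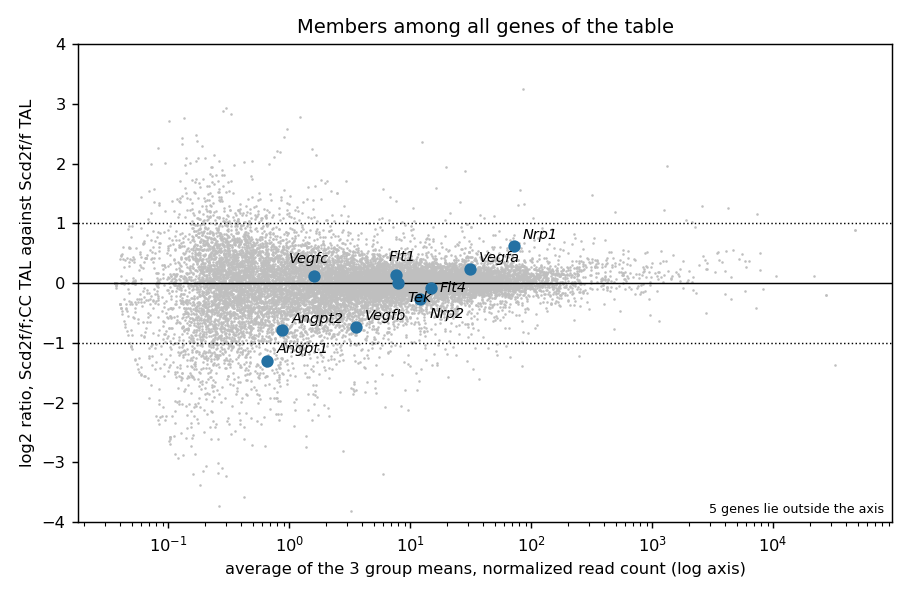
Log2 ratio of Scd2f/f;CC TAL relative to Scd2f/f TAL (vertical axis) against the average of the 3 group means (horizontal log axis). All genes but 5, which lie outside the axis, are in grey, with the 10 members in blue and dotted lines at 2-fold. The scatter narrows as the average rises, and Angpt1 (-1.30) is the only member beyond a dotted line.

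Other genes of the pathway were read together with related genes outside it, such as the angiopoietin-like genes, from a list of 13 symbols. Of these, 10 were found in the table. None of the 10 reached 2-fold in any of the 3 comparisons. Between Scd2f/f TAL and control, 6 were higher and 4 lower, with a median log2 ratio of 0.01, and in Scd2f/f;CC TAL relative to Scd2f/f TAL, 6 were higher and 4 lower, with a median of 0.06. Of the angiopoietin-like genes, which do not act through Tek, Angptl4, a lipase inhibitor, had means of 52.5, 59.2 and 63 in control, Scd2f/f TAL and Scd2f/f;CC TAL. Angptl2 had means of 7.46, 7.43 and 5.76, Angptl6 of 4.11, 3.54 and 4.22, and Angptl1 of 0.349, 0.331 and 0.26. Apln, which encodes the vessel peptide apelin, had means of 0.0685, 0.0853 and 0.0699, close to the lowest means of the table.

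Genes known to respond to VEGF in endothelial cells, or to mark sprouting tips, were read from a list of 16, of which 15 were found. All 15 had a higher mean in Scd2f/f TAL than in control, 4 of them at least 2-fold, and the median log2 ratio was 0.74 beside 0.04 for all genes. In Scd2f/f;CC TAL relative to Scd2f/f TAL, 13 had lower and 2 had higher means, 3 of them at least 2-fold lower, with a median log2 ratio of -0.68 beside 0.00 for all genes. Of all genes, 9.37% were at least 2-fold higher in the first comparison and 4.07% at least 2-fold lower in the second. These shares were 16.4% and 10.1% among genes with an average under 1, a class that holds 7 of the 15. Among genes with an average of 1 to 10 they were 9.83% and 2.37%. Notch1, the most abundant of them and a receptor that restrains sprouting, had means of 14.9, 26.5 and 23.6 in control, Scd2f/f TAL and Scd2f/f;CC TAL. Unc5b, a netrin receptor of tip cells, had means of 2.34, 3.9 and 1.8, and its mean in Scd2f/f;CC TAL was 2.17-fold below Scd2f/f TAL. Pdgfb, the endothelial signal that recruits pericytes, had means of 0.427, 1.31 and 0.749, and Cxcr4, a chemokine receptor that leukocytes also express, had means of 0.312, 1.39 and 0.702. Nr4a1, an immediate early nuclear receptor, had means of 0.44, 1.82 and 3.11 and was 1 of the 2 that were higher in Scd2f/f;CC TAL than in Scd2f/f TAL, the other being Robo4 with a ratio of 1.02. Several of these genes are used by cells other than endothelium, and the part of other cells in the list was not tested.

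All 10 sinusoidal endothelial markers found, of 11 listed, had a higher mean in Scd2f/f TAL than in control, with a median log2 ratio of 0.36. The log2 ratios of Flt4 (0.33) and Tek (0.30) in that comparison were close to it, whereas that of Flt1 was -0.02 and that of Nrp1 was -0.63. The summed mean of the sinusoidal markers was 180 in control and 229 in Scd2f/f TAL, against 230 in Scd2f/f;CC TAL. Mrc1, a scavenger receptor that macrophages also carry, was the most abundant of them, with means of 37.8, 57.5 and 55.9, and without it the sums were 142, 172 and 175. Lyve1, a hyaluronan receptor of sinusoidal and lymphatic endothelium and of some macrophages, was the only sinusoidal marker at least 2-fold apart, with means of 2.6, 6.6 and 3.44.

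The 11 vascular endothelial markers had summed means of 79 in control and 121 in Scd2f/f TAL, against 105 in Scd2f/f;CC TAL, with 8 of 11 higher in Scd2f/f TAL than in control and 9 of 11 lower in Scd2f/f;CC TAL than in Scd2f/f TAL. Their median log2 ratios in these comparisons were 0.30 and -0.10. Eng, a TGF-beta co-receptor of endothelium and the most abundant of them, had means of 23.4, 30.2 and 29.4. Cdh5, the cadherin of endothelial junctions, had means of 13.6, 27.7 and 24.9. Ly6a, which leukocytes also carry, had means of 1.24, 5.4 and 3.03. Cd34, a marker of continuous capillaries that stromal progenitors share, had means of 1.42, 1.23 and 0.485, a 2.54-fold lower mean in Scd2f/f;CC TAL than in Scd2f/f TAL. When the log2 ratios were centred on the median of the sinusoidal and vascular markers, a choice made after the values were seen, those of Scd2f/f TAL against control were -0.03 for Flt4, -0.06 for Tek, -0.02 for Vegfb and -0.20 for Nrp2. In the same setting they were -0.99 for Nrp1, -0.72 for Vegfa and -0.38 for Flt1, farther from 0 than without centring, and 0.28 for Vegfc, 0.28 for Angpt1 and 0.16 for Angpt2. The reference is endothelial, so for members also made by other cells, such as Vegfa in hepatocytes, these values are not levels per endothelial cell.

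For lymphatic vessels, where Vegfc and Flt4 act, all 5 listed markers were found, with summed means of 185 in control and 148 in Scd2f/f TAL, against 164 in Scd2f/f;CC TAL. While Vegfc and Flt4 were higher in Scd2f/f TAL than in control, 4 of these 5 were lower, and the median log2 ratio was -0.92. Prox1, which hepatocytes also express, had means of 110 in control and 58.1 in Scd2f/f TAL, against 92 in Scd2f/f;CC TAL. Without it the sums were 74.8, 89.9 and 72.3. Mmrn1 had means of 0.937, 0.279 and 0.359, Ccl21a of 0.49, 0.212 and 0.251, and Pdpn of 0.417, 0.242 and 0.0998. Reln, which stellate cells also express, had means of 73, 89.2 and 71.6. The defining lymphatic markers Pdpn, Ccl21a and Mmrn1 were thus all under 1 in every group.

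Markers of stellate cells and portal fibroblasts also differed between the groups. All 11 markers of activated stellate cells or portal fibroblasts had a lower mean in Scd2f/f;CC TAL than in Scd2f/f TAL, 8 of them at least 2-fold, with a median log2 ratio of -1.44, and 10 of 11 were higher in Scd2f/f TAL than in control. The exception was Acta2, by whose protein the study stained aHSC, with means of 1.27, 1.2 and 0.388 in control, Scd2f/f TAL and Scd2f/f;CC TAL. The summed means of the 11 markers were 51.1 in control and 132 in Scd2f/f TAL, against 51.2 in Scd2f/f;CC TAL. Col3a1, a fibrillar collagen and the most abundant of them, had means of 19.3, 58.6 and 21.6, and the type I collagen genes followed it, Col1a1 with means of 4.69, 19.6 and 4.51 and Col1a2 with 6.65, 21.7 and 6.93. Without Col3a1 the sums were 31.8, 73.8 and 29.6. Pdgfrb, the PDGF receptor of pericytes and stellate cells, had means of 6.08, 9.91 and 4.75. The 9 markers of quiescent stellate cells had summed means of 177, 223 and 189, with Reln the most abundant, and a median log2 ratio of -0.27 in Scd2f/f;CC TAL relative to Scd2f/f TAL. Among them Ngfr, a neurotrophin receptor, had means of 1.49, 3.25 and 2.37, and Des, the intermediate filament desmin, had means of 4.25, 3.29 and 1.98. The Cre acts in Col1a1-expressing cells, and Scd2f/f;CC TAL differs from Scd2f/f TAL in these markers and in the angiopoietins at once. The part of stellate cell number in the angiopoietin means was not tested.

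Markers of other liver cells also differed between the groups. All 11 macrophage markers were at least 2-fold higher in Scd2f/f TAL than in control, with summed means of 106 in control and 420 in Scd2f/f TAL, against 339 in Scd2f/f;CC TAL. Relative to Scd2f/f TAL, 10 of the 11 were lower in Scd2f/f;CC TAL, with a median log2 ratio of -0.34. Trem2 (0.253, 1.8 and 0.459 in control, Scd2f/f TAL and Scd2f/f;CC TAL) and Itgax (0.235, 3.66 and 1.12) were at least 2-fold lower there. Cd5l, a secreted protein of Kupffer cells and the most abundant of these markers, had means of 22.9, 114 and 99, and the Kupffer cell lectin Clec4f had means of 27.3, 71.2 and 71.7. Lyz2, a lysozyme of myeloid cells, had means of 24.9, 107 and 63.7, and Csf1r, the receptor that macrophages need to survive, had means of 17, 60.8 and 53.5. The 8 T and B cell markers had summed means of 1.76, 5.17 and 3.47, with Cd4, which Kupffer cells can also express, the most abundant on average (0.442, 0.817 and 0.883). The T cell genes Cd3e (0.226, 1.25 and 0.545) and Cd8a (0.235, 1.05 and 0.302) had their highest means in Scd2f/f TAL, which the B cell gene Cd79a (0.211, 0.53 and 0.569) did not. The 6 cholangiocyte markers, with Spp1 (osteopontin) the most abundant at 52.3, 45.1 and 14.8, had summed means of 58.9, 53.6 and 19.3, and 5 of 6 were at least 2-fold lower in Scd2f/f;CC TAL than in Scd2f/f TAL. Among them Epcam had means of 1.97, 1.82 and 0.5, and the keratins Krt19 and Krt7 had means of 0.746, 0.751 and 0.204 and of 0.652, 0.436 and 0.0892. The 8 hepatocyte markers had a median log2 ratio of -0.09 between Scd2f/f TAL and control and of 0.19 in Scd2f/f;CC TAL relative to Scd2f/f TAL, beside -0.36 and 0.24 for Vegfa. Tat, an enzyme of tyrosine breakdown, had means of 499, 181 and 305. The table lists no gene at 0, and the part of these cells in the differences of Vegfa, Vegfb and Nrp1 was not tested.

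**Figure D4:**
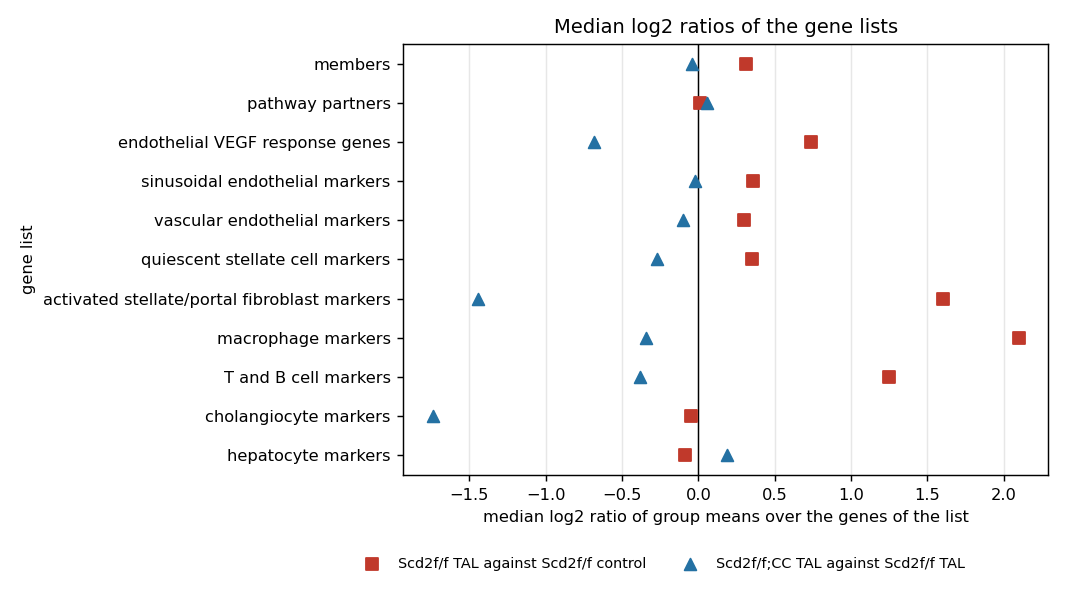
Median log2 ratio of group means (horizontal axis) over the genes of each list shown, with red squares for Scd2f/f TAL against control and blue triangles for Scd2f/f;CC TAL relative to Scd2f/f TAL. Not drawn are the lymphatic endothelial markers (-0.92 and 0.24), the class 3 semaphorins and plexins (0.25 and -0.18) and the hypoxia response genes (0.10 and -0.06). The 10 members, which differed in both directions, lie at 0.31 and -0.04, the sinusoidal endothelial markers at 0.36 and -0.02 and the vascular ones at 0.30 and -0.10, and the activated stellate and portal fibroblast markers lie at 1.60 and -1.44.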

How the data were processed

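Polyadenylated RNA from liver of 9 mice in 3 groups was sequenced on an Illumina NextSeq. Per the labels and the study's methods, the authors used STAR 2.6.1 and Partek 6 with mm10, counted reads per gene of Gencode M3 with an expectation-maximization method, normalized them by upper quartile, and tested groups in Gene Specific Analysis. The signal analysed is the deposited least-squares mean per group, written with 3 significant digits. The column of Scd2f/f TAL appears in 2 copies, which were equal for all 16755 genes. The second copy is listed as another kind of column, used by no result. Columns with the authors' p-values, false discovery rates, ratios and fold changes were not used.

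Ratios were computed from the group means without a pseudocount, over all genes, and 2-fold was the limit. Without values of single mice no test was run. Symbols were matched to GENCODE M21 on GRCm38 (16171 genes, of which 99.969% overlapped the gene of that name), which gave coordinates and merged exon lengths. Promoter sequences are from RefSeq (GRCm38.p6). The members and gene lists were chosen with earlier results of these data known. Named genes are the members, Scd2, the pathway partners found (1 of them is not reported here), and in each other list the most abundant gene and up to 4 abundant ones at least 2-fold apart. Other named genes, among them Robo4, were chosen after their values were seen. The 3 genes nearest to Vegfc and Angpt1 are also named. The counting step was tested on simulated data. Alternatives were another fold, filters on the average, pseudocounts, centring and protein-coding genes alone. The software was Python 3.11.15, NumPy 2.4.6, pandas 2.3.3 and Matplotlib 3.10.9.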

Additional observations from a re-analysis of the deposited data

How the results depend on the processing

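No paired analysis was possible because the table holds 1 mean per group, and for the same reason no replicate could be left out. Over the comparisons of Scd2f/f TAL with control, of Scd2f/f;CC TAL with Scd2f/f TAL and of Scd2f/f;CC TAL with control, in this order, the members at least 2-fold apart numbered 0, 1 and 0, and the genes 2355, 987 and 1851. These genes were 14.1%, 5.89% and 11% of the 16755. With 1.5-fold in place of 2-fold the members numbered 3, 4 and 2 and the genes 4777, 2605 and 4317 (28.5%, 15.5% and 25.8%). Among genes with an average of at least 1, 0 of the 8 members left were 2-fold apart in any comparison, since Angpt1 is removed by that filter. The genes numbered 1095, 257 and 832, or 9.29%, 2.18% and 7.06% of the 11784 left. With an average of at least 10, 0 of 4 members and 292, 62 and 252 genes were 2-fold apart. These genes were 5.23%, 1.11% and 4.51% of the 5586 left. With a pseudocount of 0.1, the member counts stayed at 0, 1 and 0 and the genes in Scd2f/f;CC TAL relative to Scd2f/f TAL numbered 530 (3.16%). With a pseudocount of 1, Angpt1 had a log2 ratio of -0.50 in that comparison in place of -1.30, so that 0 members were 2-fold apart. The genes then numbered 712, 125 and 479 (4.25%, 0.746% and 2.86%). Centring on the median gene and protein-coding genes alone kept all member counts, and the former kept the direction of all 30 log2 ratios of members. Centring on the endothelial markers, added after the values were seen, turned the direction of 8 of the 30, all of them under 1.5-fold. Depth per library is unknown, so the error of low means such as those of Angpt1 and Angpt2 cannot be given.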

Other observations

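Class 3 semaphorins, the other ligands of the neuropilins, and their plexin partners were read from a list of 12 genes, of which 11 were found. Between Scd2f/f TAL and control, 8 of them had higher and 3 had lower means. Their median log2 ratio was 0.25 in that comparison, beside 0.04 for all genes. In Scd2f/f;CC TAL relative to Scd2f/f TAL, 9 had lower means and 1 a higher mean. The median log2 ratio was then -0.18, beside 0.00 for all genes. Plxnd1, the most abundant of them and a semaphorin receptor of endothelium, had means of 14.5 in control and 17.2 in Scd2f/f TAL, against 17.2 in Scd2f/f;CC TAL. Sema3c had means of 1.36, 0.883 and 0.465. Sema3e had means of 0.0915, 0.0813 and 0.0349, the last being the lowest mean that the table holds for Scd2f/f;CC TAL.

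Hypoxia response genes, a group to which Vegfa belongs, showed no common direction. Of 19 found among 21 listed, 11 were higher and 8 lower in Scd2f/f TAL than in control, with 2 at least 2-fold higher and 2 at least 2-fold lower, and the median log2 ratio was 0.10. In Scd2f/f;CC TAL relative to Scd2f/f TAL, 9 were higher and 10 lower, with a median of -0.06. Ldha, lactate dehydrogenase A and the most abundant of them, had means of 212, 301 and 321 in control, Scd2f/f TAL and Scd2f/f;CC TAL. Pfkfb3, an activator of glycolysis that sprouting endothelium also uses, had means of 24.7, 18.4 and 7.3, a 2.52-fold lower mean in Scd2f/f;CC TAL than in Scd2f/f TAL. Hk2, a hexokinase, had means of 0.804, 2.89 and 2.07, and Ddit4, a stress-induced inhibitor of mTOR signalling, had means of 3.62, 1.69 and 0.982. Pfkfb4 had means of 0.252, 0.631 and 0.483.

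The genes nearest to Angpt1 in the log2 ratios of Scd2f/f TAL to control and of Scd2f/f;CC TAL relative to Scd2f/f TAL, among the 11784 genes with an average of at least 1, were Fbln5 (0.70 and -1.29), Cidec (0.69 and -1.36) and Rragd (0.55 and -1.36), at distances of 0.061, 0.085 and 0.105 on the log2 scale, over 3 group means. The genes nearest to Vegfc were Pomt1, Kynu and Lrrcc1, at distances of 0.020, 0.025 and 0.025.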
